A study of Mus musculus with 6 samples.

Results

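Interferon-induced and antigen presentation genes were followed in brown adipose tissue as a set of 39 genes, chosen by gene symbol from the 24062 symbols of the count table. All 39 symbols were found in the table, and all 39 passed the filter on low counts. They fall into 6 roles: 5 signalling proteins and transcription factors, 5 sensors of RNA and DNA, 17 antiviral effectors, 6 interferon-induced GTPases, 4 genes of class I presentation and 2 chemokines. Trim25, a ubiquitin ligase that activates the sensor RIG-I, is counted with the sensors.

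The tissue came from 3 mice labelled knockout for FAM195A and 3 labelled heterozygous, all of them male C57BL/6 animals aged 12 weeks. FAM195A is named in the series title as a protein of stress granules that acts in heat production in the cold. The labels give neither the design of the allele nor the housing temperature, and no wild-type group was analysed here, so by their labels both groups carry a disrupted copy of the gene. By the labels, the comparison asks how the 39 transcripts differ when both copies rather than a single copy are disrupted.

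Interferons are secreted proteins that warn cells of infection. Through their receptors they activate STAT proteins and interferon regulatory factors, which enter the nucleus and switch on a shared set of target genes: sensors that detect viral nucleic acid, effectors that block viral growth, GTPases that attack enclosed pathogens, and the class I machinery that displays peptides to T cells. In fat tissue these genes are read in adipocytes as well as in endothelial cells and resident macrophages, and a low level of their transcripts is found without infection.

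The level of the transcript that the knockout label names did not separate the groups. Fam195a, called Mcrip2 in newer annotation, stood at 50.5, 82.01 and 81.3 CPM in knockout 1, 2 and 3, and at 69.0, 70.5 and 103 CPM in heterozygous 1, 2 and 3. CPM is a gene's read count divided by a library size that was scaled by the trimmed mean of M values (TMM). The groups overlapped, and the log2 fold change was -0.18 with a 95% interval of -0.75 to 0.38 (edgeR quasi-likelihood test, adjusted p = 0.896). Whole-gene counts leave the exons behind these reads unseen, and the design of the allele is not given, so the label could not be checked from these counts. Every direction given here is that of the libraries labelled knockout.

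Reads counted in genes came to 22418031 to 25084627 in the knockout-labelled libraries and 18781401 to 20471963 in the heterozygous-labelled ones. Reads without a unique alignment made up 17.6% to 19.8% of the knockout-labelled columns and 21.8% to 23.8% of the heterozygous-labelled ones, and the part of this in genes with shared sequence was not tested. Brown adipocyte markers were detected in every library, with none of 13 at 0, at a summed 21181 to 26375 CPM in knockout-labelled and 21287 to 22175 CPM in heterozygous-labelled libraries. Skeletal muscle markers summed to 6675, 3850 and 3805 CPM in knockout 1, 2 and 3, and to 10785, 24090 and 31380 CPM in heterozygous 1, 2 and 3. All 20 muscle markers had a log2 fold change below 0, with a median of -2.15, and the 39 genes were also fitted with a muscle score in the model and with muscle markers kept out of the library sizes. In such bulk libraries, fewer cells of a type and less RNA per cell cannot be told apart. Library titles carry the prefix RF (knockout 1 and 2, heterozygous 1 and 2) or RE (knockout 3, heterozygous 3), whose meaning the labels do not give. For the 39 genes, log2 ratios within each prefix are therefore given as well, with 0.5 CPM added and with no test, since the RE pair has 1 library a group.

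The 39 transcripts spanned a wide range of levels. On the length-scaled measure RPKM (CPM divided by the exon length in kilobases), averaged over all 6 libraries, the level was highest for B2m at 667, H2-K1 at 115 and H2-D1 at 18.7. These 3 genes encode the light chain and 2 heavy chains of class I molecules. Gbp2 followed at 17.1 RPKM, Bst2 at 15.8 and Ifi35 at 10.7. At the low end were Cxcl10 at 0.45 RPKM, Mx2 at 0.28 and Mx1 at 0.19. Mx1 and Mx2 are named for antiviral GTPases of the dynamin family, but C57BL/6 mice carry defective copies of both genes. The limit that a count of 0 allows, 3 reads in a library, equals 0.117 to 0.138 CPM in knockout-labelled and 0.138 to 0.160 CPM in heterozygous-labelled libraries. Such limits cover counting error only.

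**Figure D1:**
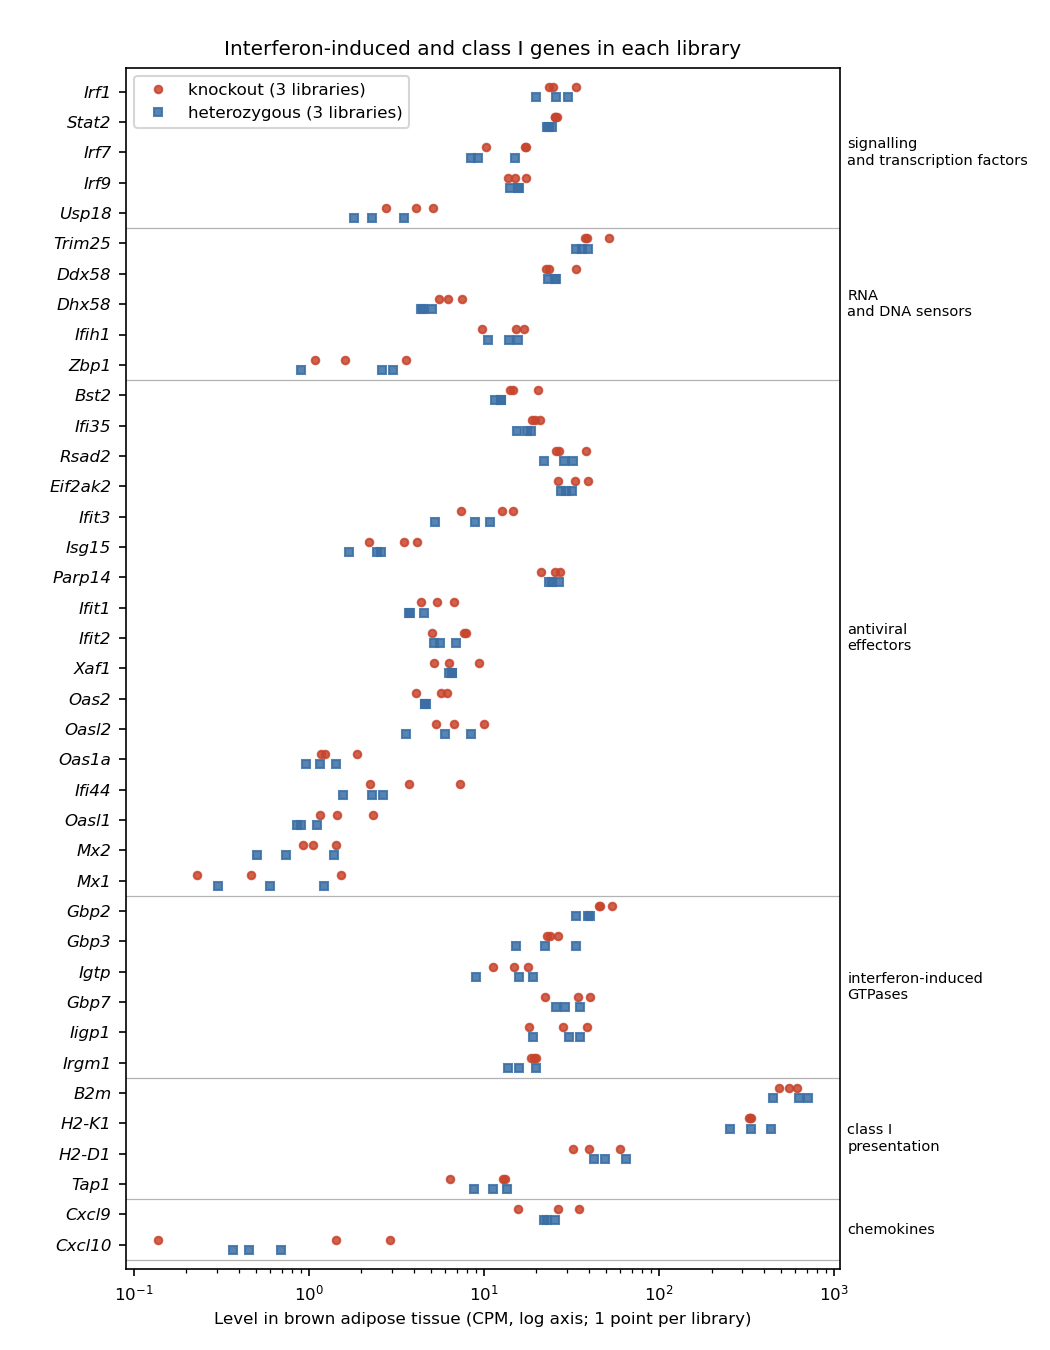
Level of each of the 39 genes in CPM on a log axis, 1 point per library, with knockout-labelled libraries as circles above heterozygous-labelled ones as squares. The genes are grouped by role. The groups overlap for 33 of 39 genes, and B2m and H2-K1 lie far above the rest.

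Target genes of interferon carry short DNA elements near their start: the interferon-stimulated response element (ISRE), bound by a complex that holds STAT2 and IRF9, and the gamma-activated sequence (GAS), which answers to interferon gamma. The letters GAAA, any 2 bases and GAAA again, here called ISRE-like, and TTCNNNGAA, called GAS-like, were searched on both strands of RefSeq promoters (GRCm38.p6) running from 250 bases before to 50 bases after the start. A promoter was available for 31 of the 39 genes, and none is given for Dhx58, Zbp1, Iigp1, Mx1, Usp18, Parp14, Mx2 and Oas2. An ISRE-like match stood in 17 of the 31 (54.8%), against 3.99% of all 27025 genes with a promoter. A GAS-like match stood in 8 (25.8%), against 9.55% of all. In Bst2 the matches of the 2 motifs overlap. By role, an ISRE-like match was found in 5 of 5 GTPases, 7 of 13 effectors, 2 of 3 sensors, and 1 gene each of signalling, class I presentation and chemokines.

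The following windows are shown because they hold matches of genes described below, with the letters matched by a single motif in capitals. They run 5′ to 3′ in the direction of the gene. Capitals mark ISRE-like letters, except in Irf1, where they mark GAS-like ones. The GAS-like match of Bst2 is therefore partly in lower case. Where the capitals begin with TTTC, the ISRE-like letters lie on the opposite strand.
Stat2 chr10:128270256-128270305 plus: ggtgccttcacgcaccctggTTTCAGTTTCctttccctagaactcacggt
Irf1 (GAS-like) chr11:53769904-53769952 plus: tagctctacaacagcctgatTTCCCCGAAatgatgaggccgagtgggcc
Bst2 chr8:71537567-71537622 minus: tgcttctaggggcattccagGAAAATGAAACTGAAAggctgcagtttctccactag
Ifit1 chr19:34640765-34640833 plus: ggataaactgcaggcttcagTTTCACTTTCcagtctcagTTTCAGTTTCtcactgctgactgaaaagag
Isg15 chr4:156200855-156200916 minus: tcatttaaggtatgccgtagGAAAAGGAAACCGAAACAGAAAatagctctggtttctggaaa
Gbp2 chr3:142620584-142620633 plus: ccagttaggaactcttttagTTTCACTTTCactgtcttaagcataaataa
B2m chr2:122147528-122147577 plus: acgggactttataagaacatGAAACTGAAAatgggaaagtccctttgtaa
Cxcl10 chr5:92349073-92349122 minus: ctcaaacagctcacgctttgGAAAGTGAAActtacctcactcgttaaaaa
Isg15 holds 3 overlapping matches in a row, and Bst2 and Ifit1 hold a pair each. The first base of a match lies 59 bases before the start in Gbp2, 139 in B2m, 213 in Cxcl10 and 222 in Stat2. Distances are from RefSeq starts, and the GENCODE start of Gbp2 lies inside its window. These are matches of letters, and binding was not measured.

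**Figure D2:**
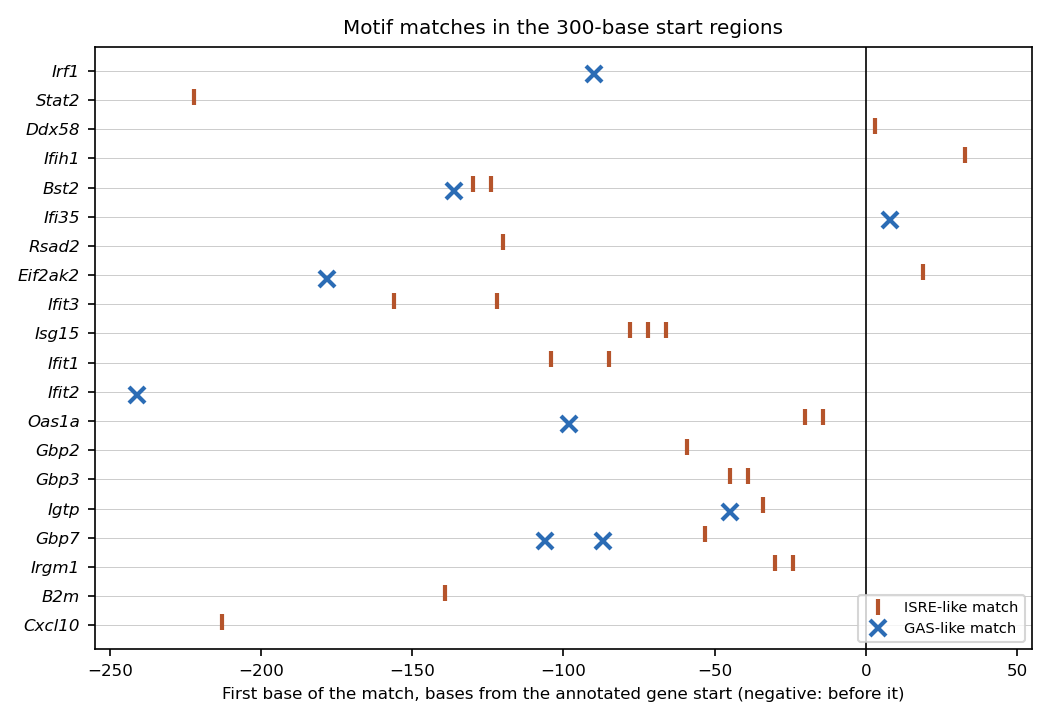
Position of ISRE-like matches (bars) and GAS-like matches (crosses) in the RefSeq promoters, in bases from the gene start, for the genes that hold any. ISRE-like matches run from 222 bases before the start in Stat2 to positions after it in Ddx58, Ifih1 and Eif2ak2.

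None of the 39 genes passed the test between the genotype labels. At an adjusted p of 0.05, edgeR called 0 of 39, against 0.586% of all 13300 genes tested (7 higher, 0.0526%, and 71 lower, 0.534%). At an unadjusted p under 0.05 there were 2 of 39, both higher, Gbp2 and Dhx58, against 4.05% of all genes on the higher side, 8.04% on the lower side and 12.1% in all. DESeq2 also called 0 of 39, against 0.995% of all genes higher, 5.04% lower and 6.04% in all. With limma-voom and quality weights the count was again 0 of 39, against 0.218% higher, 1.24% lower and 1.46% in all. The smallest adjusted p in edgeR was 0.341, for Gbp2. A log2 fold change above 0 was estimated for 32 of 39 genes, against 53.1% of all genes tested, and the median was 0.15, against 0.02 over all genes. By prefix, 36 of 39 genes were higher in the knockout-labelled libraries in RF, with a median log2 ratio of 0.24. In the RE pair 21 of 39 were higher, with a median of 0.01. Over all genes tested the median ratio was 0.0103 in RF and 0.00267 in RE libraries, and shares above 0 were not counted by prefix. In 19 of the 39 genes the ratio was above 0 in both prefixes. The 95% interval contained 0 for 37 genes and lay within a doubling or halving (log2 -1 to 1) for 27. For the other 12 genes a doubling, a halving or both lay inside the interval.

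Separation of the groups was seen for 6 genes, in which every knockout-labelled library lay above every heterozygous-labelled one: Stat2, Dhx58, Bst2, Ifi35, Oasl1 and Gbp2. Over all genes tested this held for 8.11%, and separation in either direction for 18%. The opposite order held for 0 of the 39, against 9.89% of all genes. These 6 genes come from 4 of the 6 roles.

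**Figure D3:**
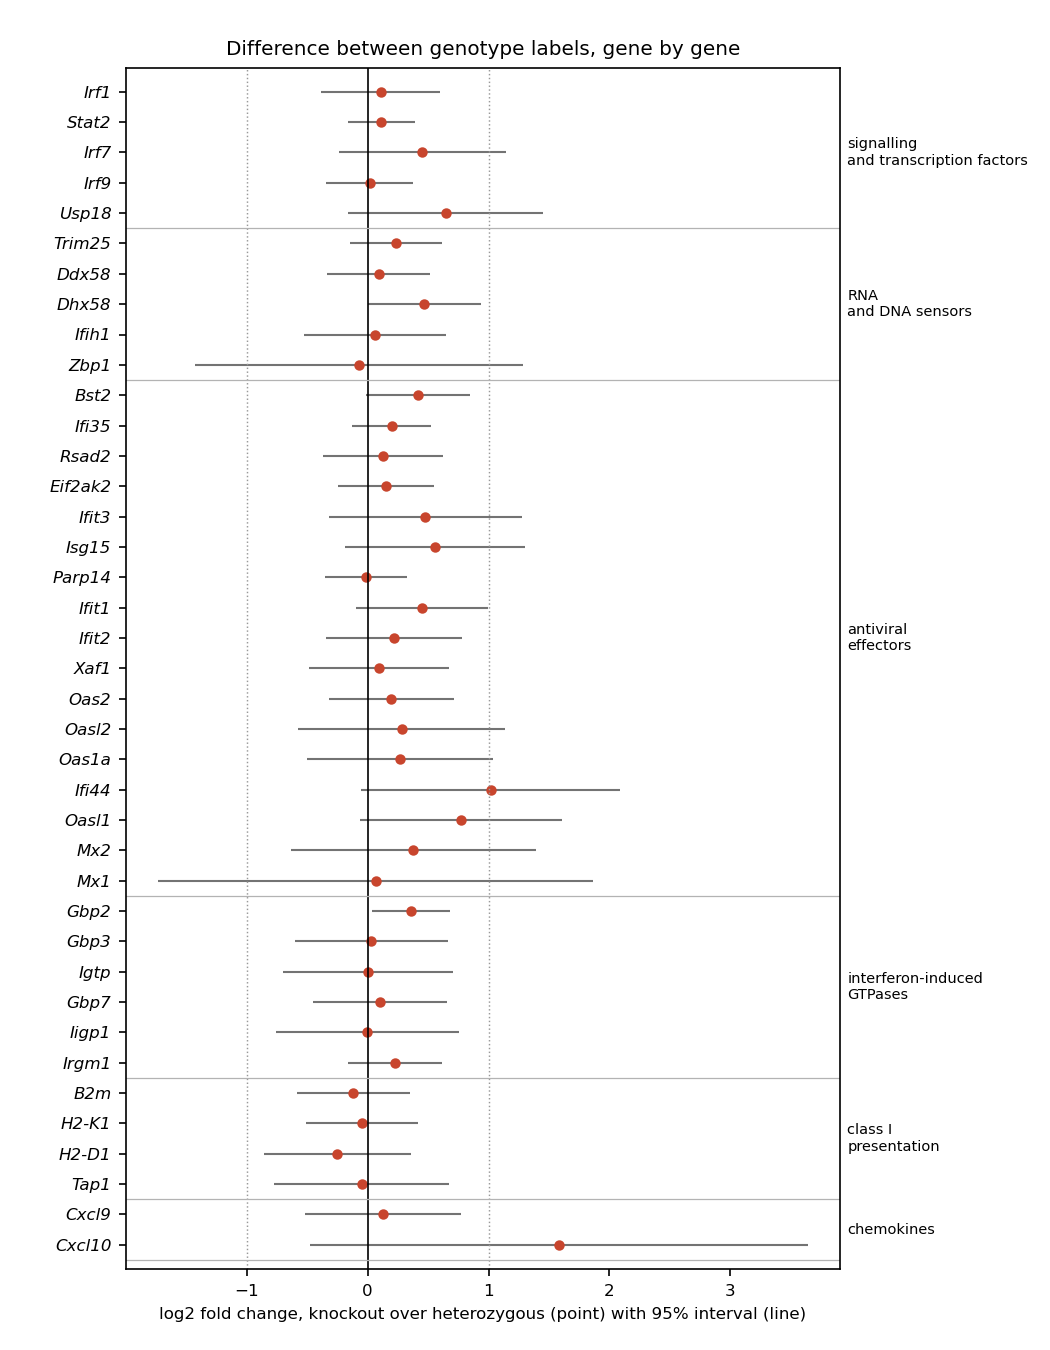
Log2 fold change of each gene, knockout over heterozygous (point), with its 95% interval (line), grouped by role. The dotted lines mark -1 and 1. Class I genes lie left of 0 by small amounts, and the widest intervals belong to Cxcl10, Mx1 and Zbp1.

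The signalling genes all had estimates above 0, with a median log2 fold change of 0.11, and 0 of 5 passed. Usp18 encodes the protease that strips ISG15 from proteins and dampens signalling at the type I receptor. It stood at 4.08, 2.77 and 5.12 CPM in knockout 1, 2 and 3, and at 3.52, 1.81 and 2.31 CPM in heterozygous 1, 2 and 3. The means were 3.99 ± 1.18 and 2.55 ± 0.878 CPM (SD, n = 3 each), and the log2 fold change of 0.65 had an interval of -0.16 to 1.45 (edgeR adjusted p = 0.57). Knockout 2 lay below heterozygous 1, so the groups overlapped. Irf7, the factor that amplifies type I interferon production, had 17.3, 10.3 and 17.2 CPM in knockout 1, 2 and 3, and 8.43, 9.28 and 14.998 CPM in heterozygous 1, 2 and 3. Here too the groups overlapped, through the high heterozygous 3 and the low knockout 2 (log2 0.45, edgeR adjusted p = 0.682). The log2 ratio of Usp18 was 0.31 in RF and 1.002 in RE libraries, and that of Irf7 was 0.62 in RF and 0.19 in RE libraries.

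Stat2, a transcription factor of type I signalling (chromosome 10, 128270559 to 128292849, GRCm38), was narrow in both groups. Its levels were 25.5, 26.1 and 25.5 CPM in knockout 1, 2 and 3, and 24.5, 23.1 and 23.7 CPM in heterozygous 1, 2 and 3. The groups did not overlap, but the difference was small, at a log2 of 0.11 (interval -0.16 to 0.39, edgeR adjusted p = 0.849). Irf1, a factor that interferon gamma induces, had 23.5, 33.8 and 24.7 CPM in knockout 1, 2 and 3, and 30.3, 19.96 and 25.9 CPM in heterozygous 1, 2 and 3, with overlapping groups (log2 0.11). Irf9, the DNA-binding partner of STAT2, ran from 13.8 to 17.4 CPM in knockout-labelled and from 14.1 to 15.9 CPM in heterozygous-labelled libraries. Its log2 fold change was 0.02, with an interval of -0.34 to 0.38. Stat2 had a log2 ratio of 0.11 in RF and 0.10 in RE libraries, Irf1 had 0.19 in RF and -0.06 in RE, and Irf9 had 0.11 in RF and -0.19 in RE. Within the prefixes, the median of the 5 genes was 0.19 in RF and 0.10 in RE libraries.

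Among the sensors, 4 of 5 estimates were above 0 and 0 passed. Dhx58 encodes LGP2, a helicase of the RIG-I family that tunes the response to viral RNA (chromosome 11, 100694884 to 100704271, minus strand). It stood at 7.48, 5.58 and 6.23 CPM in knockout 1, 2 and 3, and at 5.07, 4.49 and 4.38 CPM in heterozygous 1, 2 and 3. Every knockout-labelled library was above every other one, with means of 6.43 ± 0.967 and 4.65 ± 0.369 CPM (SD, n = 3 each). The log2 fold change was 0.47 (SE 0.2, interval 0.00 to 0.94, edgeR adjusted p = 0.414). The log2 ratio was 0.41 in RF and 0.46 in RE libraries. Exons of Dhx58 overlap the opposite-strand gene Dhx58os by 141 bases, and the sources used here do not say whether strand was used in counting.

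The other sensors overlapped between the groups. Trim25, the ubiquitin ligase that activates RIG-I, had 52.1, 37.7 and 38.9 CPM in knockout 1, 2 and 3, and 36.5, 39.4 and 33.5 CPM in heterozygous 1, 2 and 3, with knockout 1 standing apart (log2 0.23). Ddx58, which encodes RIG-I itself, had 33.6, 23.6 and 22.6 CPM in knockout 1, 2 and 3, and 25.7, 25.96 and 23.3 CPM in heterozygous 1, 2 and 3 (log2 0.09). Again the single high value was knockout 1. Ifih1, which encodes the sensor MDA5, had 15.2, 9.71 and 16.9 CPM in knockout 1, 2 and 3, and 13.98, 10.6 and 15.6 CPM in heterozygous 1, 2 and 3 (log2 0.06). Knockout 2 was the lowest library and knockout 3 the highest. Zbp1, a sensor of Z-form nucleic acid, had a log2 fold change of -0.07 with an interval of -1.42 to 1.29, which contains both a halving and a doubling. The log2 ratio of Trim25 was 0.24 in RF and 0.21 in RE libraries, and that of Ifih1 was 0.02 and 0.12. For Ddx58 (0.15 in RF and -0.04 in RE) and Zbp1 (0.20 in RF and -0.57 in RE) the prefixes differed in sign. The median of the 5 sensors was 0.20 in RF and 0.12 in RE libraries.

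The antiviral effectors had 16 of 17 estimates above 0 and a median log2 fold change of 0.27, and 0 passed. Their median log2 ratio was 0.26 in RF and 0.15 in RE libraries. Bst2, known as tetherin, holds budding virus particles at the cell surface (chromosome 8, 71534255 to 71537456, minus strand). Its levels were 20.3, 14.6 and 14.1 CPM in knockout 1, 2 and 3, and 12.5, 12.6 and 11.6 CPM in heterozygous 1, 2 and 3. The groups did not overlap, and knockout 1 was the highest library (log2 0.42, SE 0.184, interval -0.01 to 0.85, edgeR adjusted p = 0.439). The log2 ratio was 0.46 in RF and 0.27 in RE libraries.

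Oasl1, a relative of the 2′-5′ oligoadenylate synthetases known in mice to hold back Irf7 translation, did not overlap either, although its values were near 1 CPM. It had 2.33, 1.44 and 1.15 CPM in knockout 1, 2 and 3, and 0.907, 0.857 and 1.11 CPM in heterozygous 1, 2 and 3. The lowest knockout-labelled value and the highest heterozygous-labelled value come from the RE pair, where the log2 ratio was 0.04, against 0.79 in RF libraries. The pooled log2 fold change was 0.77 (interval -0.06 to 1.61, edgeR adjusted p = 0.471). Ifi35, a leucine zipper protein induced by interferon, had 19.6, 19.0 and 20.9 CPM in knockout 1, 2 and 3, and 17.6, 15.5 and 18.7 CPM in heterozygous 1, 2 and 3. The gap between the groups was narrow, and the log2 fold change was 0.20 (edgeR adjusted p = 0.711), with 0.22 in RF and 0.15 in RE libraries. Its exons share 290 bases with the opposite-strand gene Gm11626.

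Ifi44 had the largest estimate among the effectors, and its highest value stood in knockout 1. The gene, which encodes a cytoplasmic protein induced by interferon, had 7.30, 2.22 and 3.74 CPM in knockout 1, 2 and 3, and 2.29, 2.67 and 1.57 CPM in heterozygous 1, 2 and 3. Knockout 2 lay below heterozygous 1 and 2, so the groups overlapped (log2 1.02, interval -0.05 to 2.09, edgeR adjusted p = 0.45). Without knockout 1 the log2 fold change was 0.45. The log2 ratio was 0.82 in RF and 1.03 in RE libraries. Ifit1, whose protein binds viral RNA that lacks a host cap mark, had 6.72, 5.38 and 4.38 CPM in knockout 1, 2 and 3, and 3.79, 3.73 and 4.57 CPM in heterozygous 1, 2 and 3. Only the RE pair crossed, with a log2 ratio of -0.05 there and 0.62 in RF libraries (pooled log2 0.45, edgeR adjusted p = 0.555).

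The remaining effectors all overlapped between the groups. Isg15, the ubiquitin-like modifier of this response, had a log2 fold change of 0.56, and Ifit3, which stabilises the RNA-binding complex of IFIT proteins, 0.48. Rsad2, or viperin, which makes a chain-terminating nucleotide, had 0.13. Eif2ak2, the kinase PKR that halts translation, had 0.15, and Parp14, an ADP-ribosyltransferase, had -0.01. Oas1a, Oas2 and Oasl2 lay between 0.20 and 0.28. The remaining 4, Ifit2, Mx1, Mx2 and Xaf1, lay between 0.07 and 0.38. The log2 ratio differed in sign between the prefixes for Oasl2 (0.62 in RF and -0.31 in RE) and Mx1 (0.24 and -0.59). It also did for Xaf1 (0.26 and -0.32), Rsad2 (0.24 and -0.11) and Parp14 (-0.05 and 0.07). It was above 0 in both prefixes for Isg15 (0.53 and 0.30), Ifit3 (0.48 and 0.43) and Eif2ak2 (0.14 and 0.17). The same held for Oas1a (0.17 and 0.25), Oas2 (0.13 and 0.27), Ifit2 (0.24 and 0.14) and Mx2 (0.27 and 0.20). For 2 genes the count is uncertain because other genes hold much of the same sequence: of the 50-base windows of the transcript, 57.6% of those in Oas1a also occur in Oas1g or Oas1b, and 51.2% of those in Ifit3 also occur in Ifit3b.

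The GTPases had 5 of 6 estimates above 0, with a median of 0.07, and 0 passed. The prefixes went opposite ways for this role, with a median log2 ratio of 0.32 in RF and -0.06 in RE libraries. Gbp2, a guanylate-binding protein that coats vacuoles holding pathogens, gave the smallest p of all 39 genes (chromosome 3, 142620602 to 142638008, plus strand). It stood at 54.1, 46.0 and 45.3 CPM in knockout 1, 2 and 3, and at 40.4, 33.5 and 39.3 CPM in heterozygous 1, 2 and 3. The means were 48.4 ± 4.9 and 37.7 ± 3.73 CPM (SD, n = 3 each), with no overlap. The log2 fold change was 0.36 (SE 0.138, interval 0.04 to 0.68, unadjusted p = 0.0329, edgeR adjusted p = 0.341), with 0.43 in RF and 0.20 in RE libraries. Gbp2 shares 2.07% of its 50-base windows with other genes.

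The other GTPases overlapped. Irgm1, a regulator of the immunity-related GTPases, had 18.7, 19.4 and 19.98 CPM in knockout 1, 2 and 3, and 15.95, 13.8 and 19.8 CPM in heterozygous 1, 2 and 3. Its single overlapping value was heterozygous 3 (log2 0.23, edgeR adjusted p = 0.732). Gbp7 had 40.3, 22.2 and 34.4 CPM in knockout 1, 2 and 3, and 29.1, 25.8 and 35.3 CPM in heterozygous 1, 2 and 3, with the lowest library in the knockout-labelled group (log2 0.10). Gbp3 had 26.4, 22.9 and 23.8 CPM in knockout 1, 2 and 3, and 22.5, 15.4 and 33.7 CPM in heterozygous 1, 2 and 3. Its heterozygous-labelled values enclosed all 3 knockout-labelled ones (log2 0.03). Igtp and Iigp1, which act on vacuole membranes, had log2 fold changes of 0.01 and -0.00. The log2 ratio of Irgm1 was 0.35 in RF and 0.01 in RE libraries. It differed in sign between the prefixes for Gbp7 (0.18 in RF and -0.04 in RE), Gbp3 (0.37 and -0.49), Igtp (0.08 and -0.09) and Iigp1 (0.30 and -0.74). Of the windows of Igtp, 12.3% also occur in Irgm2, whose transcript overlaps it on the same strand. Gbp7 shares 12.8% of its windows with other genes, and Gbp3 4.8%. Exons of Gbp7 share 637 bases with Gm43802 on the same strand.

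Class I presentation was the single role in which all estimates were below 0, with 0 of 4 passing and a median log2 fold change of -0.08. The median log2 ratio was 0.02 in RF and -0.53 in RE libraries. B2m, the light chain of every class I molecule, had 551, 489 and 612 CPM in knockout 1, 2 and 3, and 708, 449 and 636 CPM in heterozygous 1, 2 and 3. The heterozygous-labelled values enclosed the others (log2 -0.12, interval -0.59 to 0.35, edgeR adjusted p = 0.923). H2-K1, a classical heavy chain, had 327, 333 and 337 CPM in knockout 1, 2 and 3, and 436, 257 and 336 CPM in heterozygous 1, 2 and 3. The knockout-labelled libraries were close to each other, and the log2 fold change was -0.04. The log2 ratio of B2m was -0.15 in RF and -0.05 in RE libraries, and that of H2-K1 was -0.07 in RF and 0.00 in RE. H2-D1, the other classical heavy chain, had 59.9, 39.99 and 32.4 CPM in knockout 1, 2 and 3, and 42.9, 49.2 and 65.3 CPM in heterozygous 1, 2 and 3. Its log2 ratio was 0.12 in RF and -0.999 in the RE pair (pooled -0.25, edgeR adjusted p = 0.847). H2-D1 shares 14.3% of its windows with other genes, and H2-K1 8.11%.

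Tap1, a subunit of the transporter that carries peptides into the endoplasmic reticulum, showed the same split by prefix. It had 13.2, 13.0 and 6.41 CPM in knockout 1, 2 and 3, and 11.3, 8.77 and 13.7 CPM in heterozygous 1, 2 and 3. Knockout 3 was the lowest library and heterozygous 3 the highest, giving a log2 ratio of -1.03 in the RE pair and 0.37 in RF libraries (pooled -0.05, edgeR adjusted p = 0.982). Exons of Tap1 share 212 bases with Psmb9 on the opposite strand.

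The chemokines draw T cells and natural killer cells through the receptor CXCR3. Cxcl10 had the largest log2 fold change of the 39 genes, 1.58, with an interval of -0.48 to 3.64 (edgeR adjusted p = 0.598). It rested on few reads: 32, 75 and 3 in knockout 1, 2 and 3, and 13, 9 and 8 in heterozygous 1, 2 and 3. The knockout-labelled libraries held both the highest and the lowest count, so the groups overlapped. Cxcl9 had 35.0, 26.4 and 15.6 CPM in knockout 1, 2 and 3, and 25.4, 22.9 and 22.2 CPM in heterozygous 1, 2 and 3. Here as well the knockout-labelled values enclosed the others (log2 0.13, edgeR adjusted p = 0.943). For both chemokines the prefixes went opposite ways: the log2 ratio was 1.32 in RF and -0.45 in RE libraries for Cxcl10, and 0.34 in RF and -0.50 in RE for Cxcl9.

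Across roles, single libraries were high or low for many of the 39 genes at once. This pattern was noticed in these data and is given as a description. Knockout 1 was the highest library for 25 of 39 genes (64.1%), against 14.1% of all genes tested, and the lowest for 0, against 15.1%. Heterozygous 2 was the lowest for 17 (43.6%), against 13.0% of all genes, and the highest for 0, against 11.1%. Among 104 other pathway genes, described below, knockout 1 was the highest for 30 (28.8%) and the lowest for 6 (5.77%). Heterozygous 2 was the lowest for 36 (34.6%) of these and the highest for 0. Within the 39 genes, knockout 1 lay above knockout 2, a library of its own group and prefix, in 34. Heterozygous 2 lay below heterozygous 1 in 31 of the 39. The mean deviation of the 39 genes from their own average was 0.37, -0.05 and -0.03 in knockout 1, 2 and 3, and 0.02, -0.30 and -0.01 in heterozygous 1, 2 and 3, on the log2(CPM + 0.5) scale. Without knockout 1 the median log2 fold change of the 39 genes was 0.03, and 21 of 39 were above 0.

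**Figure D4:**
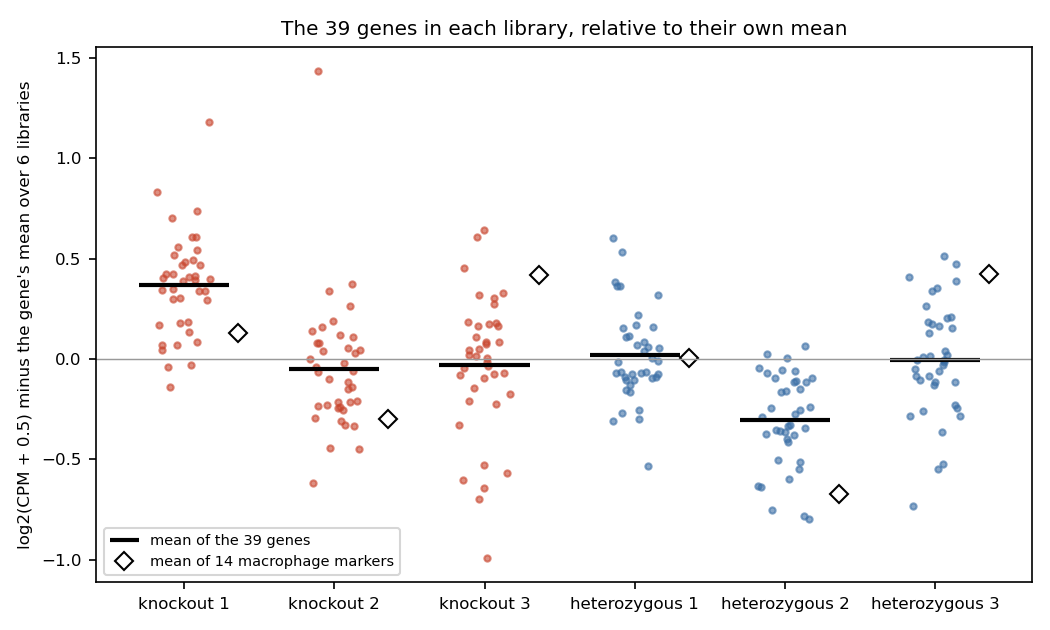
Deviation of each of the 39 genes from its own mean over the 6 libraries, on the log2(CPM + 0.5) scale, by library. Lines are means of the 39 genes and diamonds means of 14 macrophage markers. Knockout 1 lies highest and heterozygous 2 lowest for the 39 genes. The macrophage markers are also lowest in heterozygous 2, but highest in knockout 3 and heterozygous 3.

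Markers of leukocytes also differed by library. Macrophage markers, of which 14 of 15 were in the table and none was at 0, summed to 255, 192 and 350 CPM in knockout 1, 2 and 3, and to 244, 139 and 336 CPM in heterozygous 1, 2 and 3. They were lowest in heterozygous 2, as the 39 genes were, but highest in knockout 3. Of the 14 markers, 12 had a log2 fold change above 0 and 2 below, with a median of 0.22, and 0 passed. Their median log2 ratio was 0.22 in RF and -0.02 in RE libraries. The 39 genes had 32 above 0 and 7 below, with a median of 0.15, and 0.24 in RF and 0.01 in RE libraries. Lymphocyte and natural killer cell markers summed to 17.8, 7.88 and 9.18 CPM in knockout 1, 2 and 3, and to 17.6, 8.62 and 12.9 CPM in heterozygous 1, 2 and 3. At most 1 of these 16 markers was at 0 in any library, and 4 passed the filter. Dendritic cell markers summed to 11.9 to 15.3 CPM in knockout-labelled and 13.96 to 16.1 CPM in heterozygous-labelled libraries. Endothelial markers summed to 722 to 764 CPM in knockout-labelled and 621 to 784 CPM in heterozygous-labelled libraries. By log2 fold change, 6 of 8 dendritic cell markers tested were below 0 (median -0.12). So were 3 of 4 lymphocyte and natural killer cell markers (median -0.06). Of the 10 endothelial markers, 9 were above 0 (median 0.05). The median log2 ratio of the dendritic cell markers was -0.00 in RF and -0.56 in RE libraries. With a leukocyte score as a covariate the median of the 39 genes was 0.14, and with a skeletal muscle score it was 0.39. With muscle markers left out of the library sizes it was 0.15. In each of these 3 fits 0 of 39 passed. Over all genes tested, the fit with the leukocyte score called 0.00752% higher and 0.188% lower. The fit with the muscle score called 0% in either direction. That score was 7.81, 7.03 and 7.05 in knockout 1, 2 and 3, and 8.52, 9.67 and 10.1 in heterozygous 1, 2 and 3. It separated the groups, so in this fit genotype label and muscle score can hardly be told apart, and 0.39 is no muscle-corrected estimate. With muscle markers out of the library sizes the shares were 0.0526% higher and 0.481% lower.

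**Figure D5:**
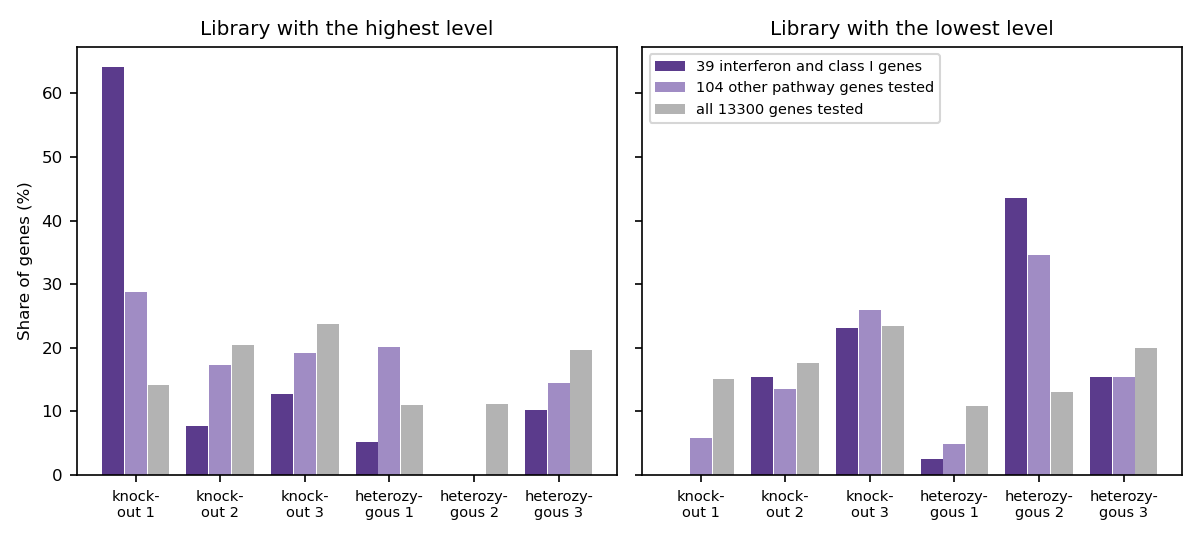
Share of genes (%) for which each library has the highest level (left panel) or the lowest level (right panel), for the 39 genes, 104 other pathway genes and all 13300 genes tested. Knockout 1 is the highest for 64.1% of the 39 genes, and heterozygous 2 the lowest for 43.6%. For the 104 other pathway genes these shares are 28.8% and 34.6%.

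The other genes of the pathway were taken from 5 lists of 128 symbols, of which 127 were in the table and 104 were tested. edgeR called 0 of these 104, with 4 at an unadjusted p under 0.05, all higher, against 4.05% of all genes tested. DESeq2 called 2 higher, against 0.995% of all genes, and limma-voom 1, against 0.218%. The median log2 fold change was 0.03, with 56 above 0 and 48 below, and the median log2 ratio was 0.09 in RF and -0.05 in RE libraries. The interferons themselves gave almost no reads: 12 ligand symbols together held 1, 2 and 2 reads in knockout 1, 2 and 3, and 0 reads in each heterozygous-labelled library, and none could be tested. Receptors, kinases and brakes of the pathway had a median of 0.07 over 20 genes, and adaptors and kinases of sensing had 0.07 over 18. Further interferon-induced genes had a median of 0.07 over 41, and further antigen presentation genes -0.04 over 25, of which 17 were below 0.

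The smallest p of the 104 belonged to Tapbpl, which encodes TAPBPR, an editor of the peptides loaded on class I molecules. It had 50.6, 46.3 and 41.5 CPM in knockout 1, 2 and 3, and 28.9, 26.01 and 23.9 CPM in heterozygous 1, 2 and 3. The groups were far apart relative to their spread, with a log2 fold change of 0.81 (SE 0.139) that missed the threshold (edgeR adjusted p = 0.0607). It was past the threshold in DESeq2 (adjusted p = 0.00012) and limma-voom (adjusted p = 0.0199). Over the alternatives its adjusted p ran from 0.00012 to 1, the last with the muscle score as a covariate, where the log2 fold change was 0.68 and 0 of all genes tested were called. Without knockout 3 it was 0.0498, and without heterozygous 1 it was 0.0484 (edgeR). Lgals9, which encodes the interferon-induced galectin 9, had 65.3, 58.0 and 54.0 CPM in knockout 1, 2 and 3, and 43.0, 38.8 and 31.2 CPM in heterozygous 1, 2 and 3. It did not overlap either (log2 0.65, SE 0.157, edgeR adjusted p = 0.102, DESeq2 adjusted p = 0.016), and its adjusted p ran up to 1 with the muscle score, where the log2 fold change was 0.39.

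In the sensing list, Traf3, an adaptor that links sensors to interferon production, had 25.2, 19.7 and 18.4 CPM in knockout 1, 2 and 3, and 14.1, 16.4 and 15.04 CPM in heterozygous 1, 2 and 3 (log2 0.47, edgeR adjusted p = 0.285). Mavs, the mitochondrial adaptor of RIG-I and MDA5, had 147, 140 and 147 CPM in knockout 1, 2 and 3, and 128, 119 and 120 CPM in heterozygous 1, 2 and 3 (log2 0.24, edgeR adjusted p = 0.468). Both were separated between the groups without passing. Uba7, the activating enzyme for ISG15, had 11.8, 13.3 and 11.03 CPM in knockout 1, 2 and 3, and 8.54, 9.43 and 10.3 CPM in heterozygous 1, 2 and 3 (log2 0.35). Isg20, an RNA exonuclease, had 6.32, 7.06 and 8.17 CPM in knockout 1, 2 and 3, and 6.03, 5.29 and 5.17 CPM in heterozygous 1, 2 and 3 (log2 0.39). These 2 were separated as well, as was Mb21d1, which encodes the DNA sensor cGAS (log2 0.56). In all, 7 of the 104 were separated with knockout-labelled libraries above, against 8.11% of all genes tested, and 0 the other way.

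The remaining named genes of these lists overlapped. Daxx, a chaperone of histones, had 21.9, 22.7 and 16.7 CPM in knockout 1, 2 and 3, and 16.6, 18.7 and 16.3 CPM in heterozygous 1, 2 and 3 (log2 0.25). H2-T24, a nonclassical class I gene, had 22.6, 33.9 and 64.5 CPM in knockout 1, 2 and 3, and 26.5, 17.998 and 16.2 CPM in heterozygous 1, 2 and 3. Its estimate of 0.99 (edgeR adjusted p = 0.359) leaned on knockout 3.

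Genes with and without a motif match are set side by side as a description. The median log2 fold change was 0.15 for the 17 genes with an ISRE-like match and 0.16 for the 14 without, among those with a promoter. Over all genes tested, it was 0.05 for 370 genes with a match and 0.02 for 9621 without.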

How the data were processed

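Raw counts by gene symbol were deposited, 1 column per library. Per the submitters' processing notes, the build was mm10 and the tools were HTSeq, SAMtools 1.9, STAR 2.7.2b, Bowtie2 2.3.4.3, edgeR and Trim Galore, without roles. The sources used here give neither annotation nor strand setting. Libraries were grouped by the genotype in the labels, 3 mice each, so p-values measure the spread between mice. Replicate numbers follow accession order and pair nothing. The 5 closing lines that name no gene were left out of library sizes. Every pair of libraries differed beyond sampling noise, with a chi-square of 39.3 to 304 for each degree of freedom.

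The quasi-likelihood test of edgeR 4.0.16 (R 4.3.3, robust, TMM scaling, filterByExpr with a minimum count of 10 and total of 15) was run on 13300 genes, with Benjamini-Hochberg adjustment over all of them. The script was tested on simulated data. DESeq2 1.42.0 and limma 3.58.1 (voom) were alternatives, as were other scalings, filters, thresholds and covariates and each library left out in turn. Gene positions and exon lengths came from GENCODE M21 on GRCm38, the assembly mm10 names. Genes named with values in every library are the 4 with the smallest p in each role, the 3 with the highest RPKM of all 39, those with separated groups, and in each other pathway list the 2 with the smallest p. Other separated pathway genes were named after their values were seen. The members and lists were chosen with earlier results of these data known.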

Additional observations from a re-analysis of the deposited data

How the results depend on the processing

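None of the 39 genes passed under any of the 19 alternatives run. The median of their log2 fold changes kept its sign throughout, and moved by more than the spread between replicates with the muscle score as a covariate, to 0.387. The muscle score separated the groups, so that fit can hardly tell it from the genotype label. Leaving out each library in turn left 21 (without knockout 1) to 36 genes above 0. Over all genes, 7 were higher: the count was 13 with no filter on low counts, 67 with the title prefix as a covariate, 19 in RF-titled libraries alone, 127 in DESeq2, 29 in limma-voom, 60 at an adjusted p of 0.1, 0 with the muscle score, 1 with the leukocyte score and 0 to 19 with each library left out. Over all genes, 71 were lower: the count was 244 with the prefix, 113 in RF-titled libraries, 644 in DESeq2, 165 in limma-voom, 440 at an adjusted p of 0.1, 0 with the muscle score, 25 with the leukocyte score and 0 to 381 with each library left out. Without knockout 1, without knockout 2 or without heterozygous 2 there were 0 calls in either direction. Without heterozygous 3 there were 2 higher and 6 lower, without heterozygous 1 there were 19 and 381, and without knockout 3 there were 13 and 98. Of the other pathway genes, 0 were called higher, against 2 with the prefix, 2 in DESeq2, 1 in limma-voom, 1 at an adjusted p of 0.1 and 0 to 1 with each library left out. With the prefix as a covariate, edgeR also called Tapbpl (adjusted p = 0.0117) and Lgals9 (adjusted p = 0.0282). The causes were not tested. No paired analysis was possible because the library titles share no replicate number between the groups. The number of mice limits the precision, and the widest intervals were those of Cxcl10, Mx1 and Zbp1.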

Other observations

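Class II presentation genes, which display peptides to helper T cells, belong to the antigen presentation list and were picked out here after their values were seen. Their estimates were all below 0, and none passed, against 0.586% of all genes tested. Below 0 were also 17 of 25 genes of the antigen presentation list and 6234 of all 13300 genes tested. H2-Aa had 35.2, 43.6 and 33.2 CPM in knockout 1, 2 and 3, and 59.7, 25.7 and 44.6 CPM in heterozygous 1, 2 and 3. Cd74, the invariant chain, had 77.0, 95.4 and 81.1 CPM in knockout 1, 2 and 3, and 120, 54.8 and 96.0 CPM in heterozygous 1, 2 and 3. In both genes the heterozygous-labelled libraries held the highest and the lowest value. H2-Eb1 had 24.5, 23.6 and 14.6 CPM in knockout 1, 2 and 3, and 28.8, 21.5 and 29.6 CPM in heterozygous 1, 2 and 3 (log2 -0.35, edgeR adjusted p = 0.69). Ciita, the master regulator of these genes, had a log2 fold change of -0.44 (edgeR adjusted p = 0.835), and H2-Ab1 had -0.30 (edgeR adjusted p = 0.801).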
